A study of Mus musculus with 18 samples.

Results

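The genes described here encode factors that hold RNA polymerase II (Pol II) near the start of genes or release it from there. They are Supt5, Supt6, Nelfa, Nelfb, Nelfcd, Nelfe, Cdk9, Ccnt1, Ccnt2 and Hexim1, and they were found by their gene symbol in a table of ChIP-seq regions of the mouse heart. Of these 10 genes, 9 had a region, with 24 of the 101256 regions in all, while Supt6 had none. The regions are therefore read as Pol II and CTCF occupancy at the genes that encode these factors, and the factors themselves were not precipitated.

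The libraries came from ventricles of 3 mouse genotypes. WT mice were wild type by their label. Trdn-as KO mice were homozygous for a polyA signal placed by Cas9 in the first exon of Trdn-as, a long non-coding RNA antisense to Trdn, and had been backcrossed to C57BL/6. Mettl3 KO mice were Mettl3lox/lox:alphaMHC-MerCreMerpos and had received tamoxifen as adults. The alphaMHC promoter drives the recombinase in cardiomyocytes, so that the other cells of the ventricle keep Mettl3, the catalytic subunit of the N6-methyladenosine writer. The methods of the study name tamoxifen-injected Mettl3lox/lox mice without the recombinase as controls, but the labels call the control libraries only WT. Whether these mice were floxed or injected is thus not given, and none is stated to carry the recombinase, so its presence cannot be told apart from the loss of Mettl3. Each genotype had 2 Pol II libraries (antibody to the B1 subunit), 2 CTCF libraries and 1 IgG library, made from chromatin of 2 hearts. In bulk tissue a lower signal in a cell type and fewer cells of that type cannot be told apart.

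After initiation, Pol II commonly pauses a short distance downstream of the start site. The complex DSIF, of which Spt5 (Supt5) is the large subunit, and the 4-subunit negative elongation factor NELF (Nelfa, Nelfb, Nelfcd and Nelfe) stabilise this pause, and the histone chaperone Spt6 (Supt6) travels with the released enzyme. Release requires the kinase P-TEFb, made of Cdk9 and cyclin T1 or T2 (Ccnt1, Ccnt2), and Hexim1 together with the 7SK RNA holds P-TEFb inactive. In the heart, P-TEFb activity is known to rise in cardiomyocyte hypertrophy.

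The promoter windows, from 250 bases before to 50 after the RefSeq start (GRCm38.p6), are shown for the members whose Pol II levels lie at the ends of the order or whose start matters below. They are Hexim1 with the highest Pol II level, Ccnt1 and Ccnt2, which encode alternative partners of the same kinase, Nelfb with the lowest GC content and Cdk9 with the lowest Pol II level per length. Capitals mark matches on either strand to 8 motifs, some of which overlap. These were the TATA box with the letters TATAAA, the CCAAT box by its name, the GC box with the letters GGGCGG and the E-box with the letters CACGTG. The others were the half-site of NRF1 with the letters TGCGCA, an ETS site with the letters CCGGAAG, the YY1 site with the letters AAGATGGC and the core of the CTCF motif with the letters AGGNGGCG.
Hexim1: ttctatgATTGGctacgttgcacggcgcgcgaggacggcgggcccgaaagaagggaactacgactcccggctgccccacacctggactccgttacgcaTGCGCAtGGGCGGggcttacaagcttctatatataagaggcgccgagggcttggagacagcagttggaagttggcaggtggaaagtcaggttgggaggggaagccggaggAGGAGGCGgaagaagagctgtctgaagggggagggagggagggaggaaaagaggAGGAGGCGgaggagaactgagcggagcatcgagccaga
Ccnt1: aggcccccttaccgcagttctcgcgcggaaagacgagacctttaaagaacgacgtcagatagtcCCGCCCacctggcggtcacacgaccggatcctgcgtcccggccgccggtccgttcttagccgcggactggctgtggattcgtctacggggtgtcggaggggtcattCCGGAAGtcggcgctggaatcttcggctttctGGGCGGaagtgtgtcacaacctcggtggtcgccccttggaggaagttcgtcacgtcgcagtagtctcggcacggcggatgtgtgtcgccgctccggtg
Ccnt2: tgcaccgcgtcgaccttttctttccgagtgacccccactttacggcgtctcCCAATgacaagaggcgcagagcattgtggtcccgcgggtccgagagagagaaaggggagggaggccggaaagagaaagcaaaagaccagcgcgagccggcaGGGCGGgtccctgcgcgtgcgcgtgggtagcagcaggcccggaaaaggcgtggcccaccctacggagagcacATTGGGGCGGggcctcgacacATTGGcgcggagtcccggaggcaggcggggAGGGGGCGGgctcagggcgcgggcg
Nelfb: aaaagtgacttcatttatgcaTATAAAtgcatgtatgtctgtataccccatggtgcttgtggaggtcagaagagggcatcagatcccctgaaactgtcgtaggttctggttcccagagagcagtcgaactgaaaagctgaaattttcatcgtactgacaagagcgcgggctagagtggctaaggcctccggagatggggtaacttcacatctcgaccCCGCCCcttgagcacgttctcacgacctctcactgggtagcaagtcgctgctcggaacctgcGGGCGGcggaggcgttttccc
Cdk9: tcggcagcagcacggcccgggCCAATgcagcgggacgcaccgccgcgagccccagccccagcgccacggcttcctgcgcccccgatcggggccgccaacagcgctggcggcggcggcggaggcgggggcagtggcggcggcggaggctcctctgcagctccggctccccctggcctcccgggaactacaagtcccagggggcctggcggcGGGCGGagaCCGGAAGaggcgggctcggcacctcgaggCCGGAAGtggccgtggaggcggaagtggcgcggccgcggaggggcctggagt

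Of the 10 genes, 8 had a window in the RefSeq table of 32851 promoters, and Nelfcd and Nelfe had none. The GC content of the windows ran from 53.0% in Nelfb to 78.3% in Cdk9, beside a median of 52.7% over all promoters, and the CpG count from 16 in Nelfb to 39 in Cdk9, beside a median of 7. The GC box was present in 7 of the 8 windows and in 35.7% of all promoters, and Supt6 was the window without it. The CCAAT letters were found in Ccnt2, Cdk9 and Hexim1 and in 37.4% of all promoters. The ETS letters occurred in Ccnt1 and, at 2 positions, in Cdk9 (8.86% of all promoters), and the YY1 letters in Nelfa and Supt5 (2.75%). The CTCF core letters were found once in Ccnt2 and at 2 positions in Hexim1 (12.9%), the NRF1 letters in Hexim1 (7.76%) and the TATA box letters in Nelfb (13.6%). No member held the E-box letters, which 7.15% of the promoters held. A match describes the letters of the window and is no evidence of binding.

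All regions are given in GRCm39 (mm39) as deposited. The lead peak of a gene is the promoter region with the highest mean Pol II value. It covered the listed start site in 8 of the 9 genes. The lead peaks lay at chr7:28037531-28039501 for Supt5, chr5:34093007-34094545 for Nelfa, chr2:25100848-25101816 for Nelfb, chr2:174257392-174257969 for Nelfcd and chr17:35068803-35069810 for Nelfe. For the P-TEFb genes they lay at chr2:32601554-32605677 for Cdk9, chr15:98464976-98466587 for Ccnt1 and chr1:127700736-127702599 for Ccnt2, and for Hexim1 at chr11:103005442-103009081.

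Ccnt1 was the exception. The centre of its lead peak lay 3023 nt downstream of the listed start, inside the gene. The RefSeq start of Ccnt1 lies 3187 nt downstream of the GENCODE start in GRCm38, where the gene has the same length of 32235 nt as in the deposited table, and that distance falls within the lead peak. At the listed start no region was called, and the nearest one, of 462 nt, was centred 828 nt downstream with Pol II values of 33 and 30 in WT.

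Several members start next to a gene on the other strand. In GENCODE M21 an opposite-strand start lay within 300 nt for 4 of the 10 genes, compared with 11.6% of 21951 protein-coding genes. Skiv2l starts 181 nt from Nelfe, 4930415O20Rik 81 nt from the listed start of Ccnt1 and the antisense RNA 2900009J06Rik 72 nt from Ccnt2, and none of these 3 neighbours had a region of its own in the table. ChIP-seq carries no strand, so the signal of Nelfe or Ccnt2 cannot be told apart from that of the neighbour. The Ccnt1 lead peak does not reach the listed start, next to which 4930415O20Rik begins.

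Sdf2 starts 241 nt from Supt6 on the opposite strand and is the fourth of these neighbours, with 1 region. This region, chr11:78135991-78137307, extends 735 nt past the Sdf2 start, compared with the spacing of 241 nt between both starts in GRCm38. The region is no member and was looked up after its values were seen. Its Pol II values were 389 and 381 (WT), 431 and 285 (Trdn-as KO) and 461 and 525 (Mettl3 KO). Whether the region holds the Supt6 start in GRCm39 was not tested, and no value is given for Supt6.

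**Figure D1:**
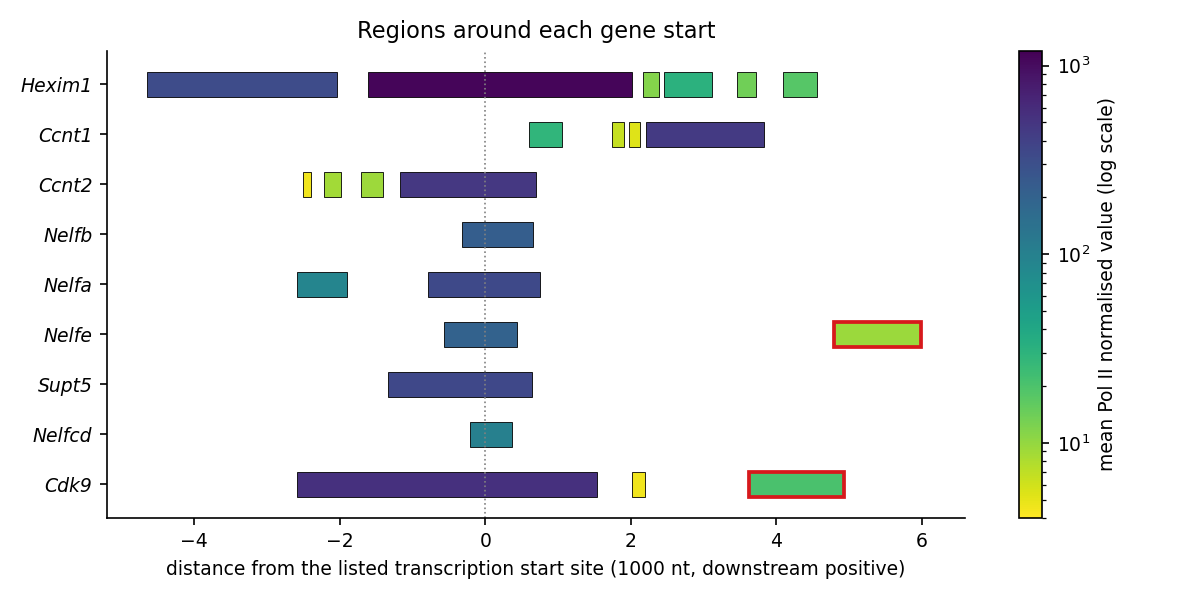
Each box is a region of a member, placed by its distance from the listed start site in units of 1000 nt and coloured by the mean Pol II value over the 6 libraries on a log scale. A red outline marks regions with a mean deposited CTCF value over 2 times the mean IgG value, which are the distal regions of Nelfe and Cdk9, and the Ccnt1 lead peak lies 3023 nt downstream of the listed start.

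The Pol II libraries held an estimated 1987570 to 4953511 reads in regions. Trdn-as KO replicate 2 stood apart, with 18.6% of its mapped reads in regions against 35.5% to 42.6% in the other 5, so results that rest on it are given with and without it. The IgG libraries were shallow, with 273445 to 813045 reads in regions. At the Trdn-as promoter the Pol II libraries held 530 and 595 (WT), 140 and 100 (Trdn-as KO) and 503 and 491 (Mettl3 KO). The regions on chromosome Y, 6 in number, summed to Pol II values of 279 and 326 (WT), 0 and 0 (Trdn-as KO) and 223 and 239 (Mettl3 KO), and the sum was 0 in the CTCF and IgG libraries of Trdn-as KO too. The labels give no sex, and in both comparisons that use Trdn-as KO this difference cannot be told apart from the genotype. The labels do not say which part of Mettl3 is deleted, so its promoter values check nothing. All 6 cardiomyocyte marker genes had a region, with a median mean Pol II value of 3557, while the 2 neuronal markers with a region had means of at most 3.33.
In WT, Trdn-as KO and Mettl3 KO in turn, the summed Pol II values of the cardiomyocyte markers were 23395 to 24854, 17364 to 23222 and 23228 to 23684, and those of the 4 fibroblast markers 564 to 580, 564 to 838 and 1169 to 1189. The 3 endothelial genes with a region (of 4 listed) summed to 701 to 746, 595 to 837 and 709 to 731. The 3 leukocyte genes (of 4) summed to 140 to 151, 113 to 130 and 110 to 141, and the single hepatocyte gene with a region (of 3) was at 18 to 22, 33 to 36 and 18 to 36. In Trdn-as KO the cardiomyocyte and leukocyte sums thus lay below those of WT, and the hepatocyte value lay above. In Mettl3 KO the fibroblast sum lay above. The cardiomyocyte sums of Mettl3 KO and WT overlapped, but single genes differed. Actc1 was lower in both Mettl3 KO libraries (3806, 3776) than in WT (4063, 4165). So were Pln (4183, 4280 against 4668, 4824) and Ryr2 (526, 533 against 641, 697). Values overlapped at Tnni3, Tnnt2 and Myh6. Myh6 had the largest values of the 6, and IgG there was 1003 (WT), 1057 (Trdn-as KO) and 1354 (Mettl3 KO). The part of these cell types in the results below was not tested.

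Pol II was present at the promoter of every one of the 9 genes. Per 1000 nt, the mean WT values ran from 288 ± 7.19 (SD, n = 2) at Hexim1 to 131 ± 4.29 at Cdk9, beside a median of 143 over the lead peaks of 12109 protein-coding genes. Hexim1 reached the 95.6th percentile of those genes and Ccnt1 the 94.1st, whereas Cdk9 stood at the 44.6th. The Cdk9 lead peak was the longest of the members, at 4123 nt, so that its value without division by length was at the 91.7th percentile.
The order by WT mean per 1000 nt was Hexim1, Ccnt1 (277 ± 2.63), Ccnt2 (241 ± 12.9), Nelfb (224 ± 6.57), Nelfa (198 ± 34.9), Nelfe (182 ± 4.21), Supt5 (171 ± 0.359), Nelfcd (168 ± 29.4) and Cdk9. The 2 WT libraries overlapped between Nelfb and Nelfa, between Nelfa and Nelfe, and between Supt5 and Nelfcd, and those neighbours in the order did not differ beyond their spread. Per 1000 nt, the 3 genes at the top of the order encode the inhibitor and both cyclins of P-TEFb, and the kinase subunit itself is at the bottom. The place of Cdk9 depends on the division by length. By mean Pol II value over the 6 libraries it (546) lay below only Hexim1 (1109.5), and above Ccnt2 (475) and Ccnt1 (453).

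**Figure D2:**
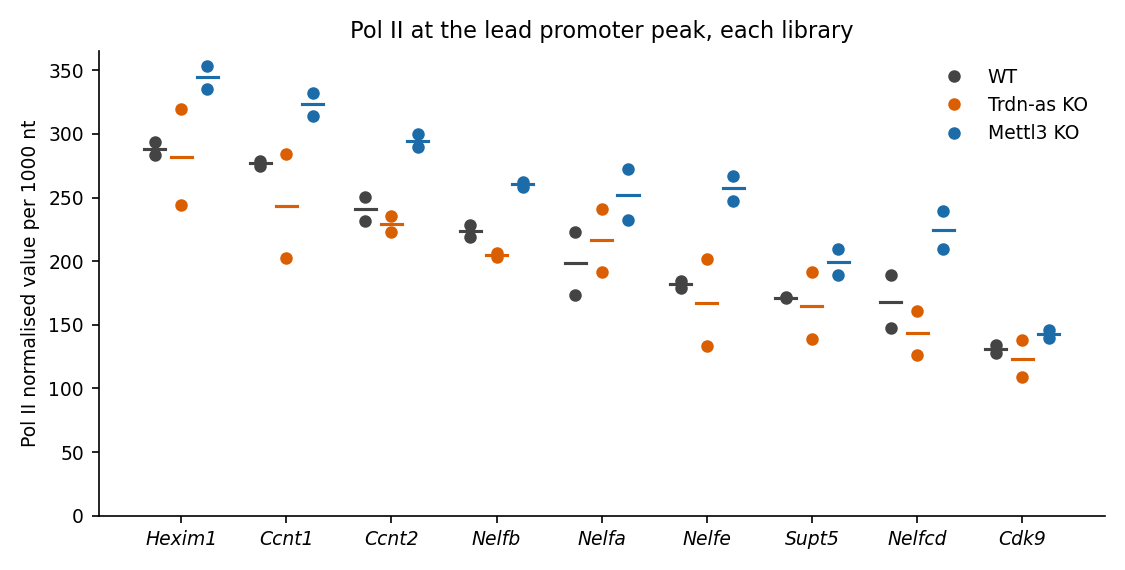
Points are the Pol II values per 1000 nt of single libraries at the lead peak of each gene, coloured by genotype, and short lines are the means of 2 libraries. In Mettl3 KO both points lie above both WT points at all 9 genes, and the 2 Trdn-as KO points are far apart at Hexim1, Ccnt1 and Nelfe.

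The comparison of Mettl3 KO with WT asks whether loss of the methyltransferase in cardiomyocytes moves Pol II at these promoters. Both Mettl3 KO libraries lay above both WT libraries at all 9 lead peaks. The same was true of 80.4% of the 8692 protein-coding lead peaks with a mean value of at least 100, a floor that all 9 members passed, so that the members shared the behaviour of most active promoters. None of the 9 passed the test. The log2 fold changes (limma, on value + 1) ran from 0.13 to 0.50, with a median of 0.26 that stood beside a median of 0.28 for the 8692 lead peaks. Over all 52655 tested regions, 1.19% were called at an adjusted p of 0.05.

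Supt5 gave Pol II values of 338 and 337 (WT) and 372 and 413 (Mettl3 KO), 1.16-fold higher (log2 fold change 0.22, 95% interval -0.14 to 0.57, adjusted p = 0.573). The 2 WT libraries were nearly equal, and both Mettl3 KO libraries were above them.
Among the NELF genes, Nelfa had values of 267 and 343 (WT) and 357 and 419 (Mettl3 KO). Nelfb had 221 and 212 (WT) and 254 and 250 (Mettl3 KO). Nelfcd, at the shortest lead peak of 577 nt, had 109 and 85 (WT) and 121 and 138 (Mettl3 KO). The groups were separate at each of these 3 genes, narrowly so at Nelfa and Nelfcd.
Nelfe, which encodes the RNA-binding subunit of NELF, had 180 and 186 (WT) and 249 and 269 (Mettl3 KO). Its change was the greatest of the 9, 1.412-fold (log2 fold change 0.50, SE 0.21, interval 0.08 to 0.91), with an unadjusted p of 0.0197 and an adjusted p of 0.229. The Nelfa, Nelfb and Nelfcd changes were 0.35, 0.22 and 0.42 on the log2 scale, with adjusted p of 0.329, 0.613 and 0.416 in limma.

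At the P-TEFb genes, Cdk9 gave 552 and 527 (WT) and 577 and 603 (Mettl3 KO). Ccnt1 gave 449 and 443 (WT) and 506 and 535 (Mettl3 KO). Ccnt2 gave 432 and 466 (WT) and 558 and 539 (Mettl3 KO). The kinase gene had the smallest change of the 9 lead peaks, 0.13 on the log2 scale (interval -0.18 to 0.44), compared with 0.22 (-0.11 to 0.55) at Ccnt1 and 0.29 (-0.03 to 0.60) at Ccnt2, and the 3 intervals overlap.
Hexim1 gave 1031 and 1068 (WT) and 1221 and 1285 (Mettl3 KO), 1.19-fold higher (log2 fold change 0.26, interval -0.01 to 0.52, adjusted p = 0.336 in limma). The 2 libraries within WT and within Mettl3 KO differed less than these genotypes did.

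The calls depended on which Pol II libraries shared the estimate of the spread. When the Trdn-as KO libraries were left out of the fit, the same fold changes passed the limma test at Hexim1 (adjusted p = 0.0106), Nelfe (0.0196) and Ccnt2 (0.0324), and 4861 regions (9.23%) were called in all. Those 3 lead peaks were also the ones called when Trdn-as KO replicate 1 was left out (adjusted p 0.0129, 0.0243 and 0.0348, with 8.65% of all regions called) and when replicate 2 was left out (0.0112, 0.0222 and 0.0355, with 8.84%).
Scaling mattered less for direction. The median change of the 9 was 0.16 with size factors computed within the Pol II libraries and 0.11 with mapped reads as library size, and all 9 stayed positive in both except Cdk9, at -0.01 with mapped reads. These scalings moved the median of all tested regions from 0.08 to -0.02 and -0.06, and that of promoter regions from 0.17 to 0.07 and 0.03.
In Mettl3 KO the IgG value was above that of WT at 7 of the 9 lead peaks, and the share of coding lead peaks at which this was so was not counted. Some of the 7 rest on few reads, as at Nelfcd (23 in WT and 37 in Mettl3 KO, from 9 and 8 reads) and Supt5 (74 and 78, from 29 and 17 reads). The IgG sum over the 9 was 787 in WT (309 reads), 894 in Trdn-as KO (136 reads) and 1059 in Mettl3 KO (230 reads), 1.35 times the WT value in Mettl3 KO, while the sum over the coding lead peaks was 1.03 times the WT value. Most of that difference came from Ccnt2, where the IgG value was 94 in WT, 92 in Trdn-as KO and 180 in Mettl3 KO, and Ccnt1, where it was 74, 53 and 147, and at Nelfa (61 in WT and 55 in Mettl3 KO) and Nelfb (61 and 60) it was lower. The corresponding Pol II sum of the 9 was 1.20 times the WT value, beside 1.19 times over the coding lead peaks. With 1 IgG library a genotype there is no replicate check, and the part of this background in the Pol II values was not tested.

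**Figure D3:**
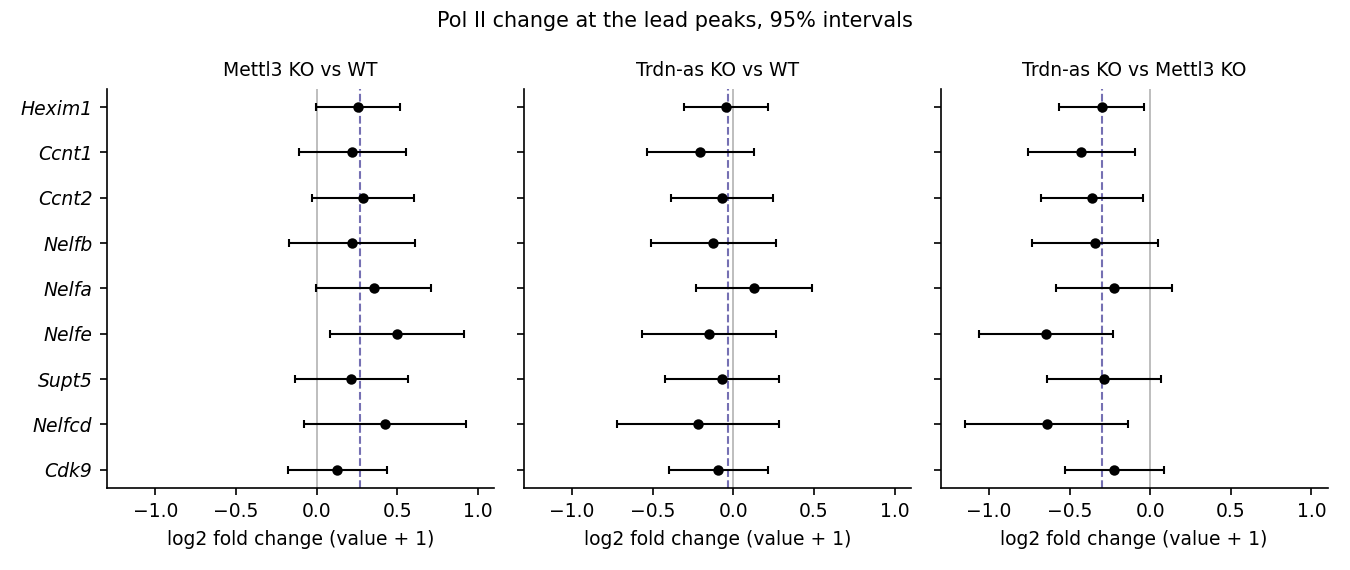
Points are log2 fold changes of Pol II (value + 1) at the 9 lead peaks in the 3 comparisons, bars are 95% intervals from limma, the grey line is 0 and the dashed line is the median of the protein-coding lead peaks. Every member interval in the Mettl3 KO comparison includes the dashed line, and no point passed the adjusted threshold.

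The comparison of Trdn-as KO with WT asks whether stopping transcription of Trdn-as early reaches these promoters. No lead peak was called, and 0.304% of the tested regions were. The log2 fold changes of the 9 ran from -0.22 at Nelfcd to 0.13 at Nelfa, with a median of -0.09 beside -0.03 for coding lead peaks of mean 100 or more. The values were 377 and 273 at Supt5, 371 and 295 at Nelfa, 197 and 200 at Nelfb, 93 and 73 at Nelfcd, and 203 and 134 at Nelfe. They were 568 and 450 at Cdk9, 458 and 326 at Ccnt1, 439 and 415 at Ccnt2 and 1164 and 888 at Hexim1.
The first value exceeded the second at 8 of the 9 genes, and the second library is the one with the low share of reads in regions. Nelfb was the only lead peak at which both Trdn-as KO libraries fell below both WT libraries, as 10.4% of the coding lead peaks of mean 100 or more did. Without Trdn-as KO replicate 1, so that replicate 2 alone stood for the genotype, Ccnt1 (log2 fold change -0.45, adjusted p = 0.0276 in limma) and the lead peak of Hexim1 (-0.24, adjusted p = 0.0482) passed the threshold in the direction of lower values. That fit assumes that the lone library, the one with the low share of reads in regions, varies like the other genotypes, and it called 3.62% of all regions, 1879 of 1908 of them lower. Without replicate 2 no lead peak was called.
Without replicate 2 the median of the 9 was 0.074 in place of -0.093, while that of all tested regions went from -0.070 to 0.078 and that of promoter regions from -0.054 to 0.11. In that fit the change was positive at Ccnt1 (0.038), Cdk9 (0.074), Hexim1 (0.15), Nelfe (0.15) and Supt5 (0.16), so that the negative direction at these 5 genes rested on that library. With both libraries the direction was negative at 8 of the 9 genes, while 41.5% of the coding lead peaks of mean 100 or more were positive. The direction turned at Ccnt2 and Hexim1 with size factors computed within the Pol II libraries, and Nelfa turned negative with mapped reads as library size. Mapped reads moved the median of all tested regions to -0.65, and the median of the members to -0.69, so that relative to all regions the members were little displaced.

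Between the knockouts, the mean change was towards lower values in Trdn-as KO at all 9 lead peaks, in each of the 3 scalings. In the fit as reported, only 6.35% of the coding lead peaks of mean 100 or more had a positive change. The log2 fold changes ran from -0.65 at Nelfe to -0.22 at Cdk9, with a median of -0.34 beside -0.31 for coding lead peaks of mean 100 or more. None was called (limma, smallest adjusted p = 0.0899 at Nelfe), with 1.5% of all regions called. The libraries did not overlap at 7 genes, all but Supt5 and Nelfa, beside 67.0% of the coding lead peaks of mean 100 or more. At Nelfcd the change was -0.64 (interval -1.15 to -0.14, adjusted p = 0.167 in limma), close to that at Nelfe (-0.65, interval -1.06 to -0.23).
Again 1 library decided the calls. Without Trdn-as KO replicate 1, 7 lead peaks passed the limma test as lower in Trdn-as KO, from Nelfe (log2 fold change -0.94, adjusted p = 0.00227) and Nelfcd (-0.82, 0.0264) to Ccnt2 (-0.40, 0.0109) and Cdk9 (-0.39, 0.00835), and in that fit, with 1 library for the genotype, 9539 regions (18.1%) were called in all. Without replicate 2 none was called, the changes ran from -0.47 at Nelfcd to -0.054 at Cdk9 with -0.35 at Nelfe, -0.18 at Ccnt1 and -0.11 at Hexim1, and the median of the 9 was -0.18, beside -0.066 for promoter regions. Size factors computed within the Pol II libraries gave a median of -0.17, beside -0.055. A stricter floor, a mean value of at least 20, called Nelfe (adjusted p = 0.0398) and no other lead peak, beside 5.37% of the 28551 regions tested there.

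The other 15 regions of the members were smaller or weaker, and 11 of them passed the filter of 10 in at least 2 Pol II libraries. Hexim1 had 5 of them. The upstream one, of 2614 nt at chr11:103002411-103005025, was centred 3339 nt before the start and held Pol II values of 306 and 315 (WT), 387 and 222 (Trdn-as KO) and 368 and 336 (Mettl3 KO). It carried 21.4% of the summed Pol II value of the Hexim1 regions, and the lead peak 73.6%. Its log2 fold change was 0.18 (interval -0.20 to 0.56) in Mettl3 KO and -0.08 (-0.46 to 0.30) in Trdn-as KO against WT, and the latter was called only without Trdn-as KO replicate 1 (-0.48, adjusted p = 0.0441 in limma).

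A small Hexim1 region of 213 nt, chr11:103009229-103009442, went the other way from the lead peak in Mettl3 KO. Its Pol II values were 16 and 14 (WT), 22 and 12 (Trdn-as KO) and 2 and 3 (Mettl3 KO), the last of which correspond to no more than 2 reads a library at the estimated value of 1 read. The Mettl3 KO libraries lay below all 4 others. The log2 fold change against WT was -2.20 (interval -3.59 to -0.82) with an adjusted p of 0.0966, and Trdn-as KO against Mettl3 KO gave 2.32 (0.93 to 3.71) with an adjusted p of 0.0672, so neither passed in limma. Both passed with size factors computed within the Pol II libraries (adjusted p = 0.0469 and 0.0415), and the first also without Trdn-as KO replicate 2 (0.0462), in fits that called 4.51%, 2.76% and 8.84% of all regions. The IgG values there were 3, 0 and 14 in WT, Trdn-as KO and Mettl3 KO.
Both Hexim1 regions that flank it downstream, of 662 nt and 266 nt, had overlapping Pol II values in Mettl3 KO (27 and 40, 18 and 13) and WT (26 and 40, 16 and 9). The small region is described for its change, and its difference from these neighbours was not tested.

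The Nelfa upstream region, of 691 nt at chr5:34095652-34096343, held 20.6% of the Nelfa Pol II signal, with 93 and 108 (WT), 97 and 71 (Trdn-as KO) and 99 and 64 (Mettl3 KO). These libraries overlap, and its changes were -0.27 (interval -0.81 to 0.27) in Trdn-as KO and -0.33 (-0.86 to 0.21) in Mettl3 KO against WT. The remaining small regions of Ccnt1 and Ccnt2 had mean Pol II values between 4.5 and 29.0. In none of the 3 comparisons did any of the 20 tested member regions pass for Pol II, and at an unadjusted p under 0.05 there were 0 in Trdn-as KO against WT, 2 in Mettl3 KO against WT and 6 between the knockouts, beside 7.7%, 15.5% and 17.9% of all tested regions.

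How far CTCF, the zinc-finger protein that anchors chromatin loops, lay above IgG at these promoters depended on the scaling. In the deposited values, which were scaled jointly, 1 IgG read counts 2.55 to 6.57 units and 1 CTCF read less than 1. On that scale the mean CTCF value at the lead peaks was a median of 1.08 times the mean IgG value, beside 1.05 for all coding lead peaks and 1.54 for all regions that passed the CTCF filter. Pol II at the same lead peaks was a median of 3.89 times the IgG value. Per uniquely mapped read, with the library totals of the study and a scaling chosen after the data were seen, the Pol II ratio had a median of 10.9 and the CTCF ratio a median of at least 1.74, beside at least 1.72 for coding lead peaks. The CTCF ratio per mapped read was at least 1.02 at every lead peak, with the highest lower bounds at Cdk9 (2.91) and Nelfa (2.18). In the deposited values Cdk9 had the highest ratio of CTCF to IgG among the lead peaks, 1.797, with CTCF values of 346 and 304 (WT), 319 and 347 (Trdn-as KO) and 331 and 330 (Mettl3 KO). Ccnt2 had the lowest, 0.637, with 82 and 79, 68 and 77, and 74 and 86. Hexim1 and Ccnt2, whose windows hold the CTCF core letters, had ratios of 1.21 and 0.637.

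Away from the starts, 2 regions carried CTCF with little Pol II. The first lies inside Cdk9, 4283 nt downstream of its start at chr2:32598153-32599457. Its CTCF values were 113 and 123 (WT), 154 and 118 (Trdn-as KO) and 120 and 128 (Mettl3 KO), 4.91 times the IgG mean, and its Pol II values only 14 to 31. The second lies at the end of Nelfe, 5393 nt downstream of its start at chr17:35074160-35075361, with CTCF values of 78 and 79 (WT), 80 and 86 (Trdn-as KO) and 79 and 78 (Mettl3 KO), 2.697 times the IgG mean, and Pol II values of 2 to 15. Per mapped read the CTCF ratios of these regions were at least 7.97 and 4.43, above those of all 9 lead peaks on the same bound. Per 1000 nt in WT they stood at the 91.4th and 75.8th percentiles of all regions tested for CTCF.
Neither was called in a comparison of genotypes. The log2 fold changes at the Cdk9 region were 0.19 (interval -0.04 to 0.43) in Trdn-as KO and 0.07 (-0.16 to 0.31) in Mettl3 KO against WT. At the Nelfe region they were 0.08 (-0.15 to 0.30) and 0.00 (-0.23 to 0.23), with adjusted p of 0.829 and 1.0 in limma.

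**Figure D4:**
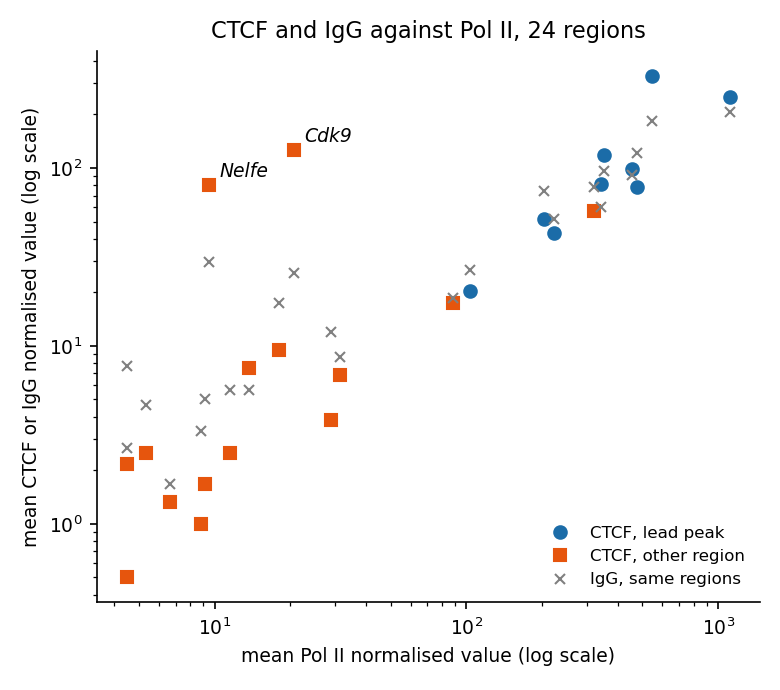
Each of the 24 regions is placed by its mean Pol II value and its mean CTCF value (circles for lead peaks, squares for other regions), with the mean IgG value of the same regions as crosses, all on log axes. On this deposited scale, on which an IgG read weighs more than a CTCF read, CTCF lies near IgG at most regions, while the distal Cdk9 region, at 4.91 times IgG, and the Nelfe region, at 2.697 times, lie above it.

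For CTCF, none of the 14 member regions that passed the filter was called in any comparison, beside 0.587% of 60649 regions in Trdn-as KO against WT, 0.185% in Mettl3 KO against WT and 1.37% between the knockouts. The lead-peak changes were small. They ran from -0.21 at Nelfb to 0.14 at Ccnt1 in Trdn-as KO against WT, and from -0.18 at Nelfa to 0.10 at Supt5 in Mettl3 KO against WT, with medians of -0.02 and -0.08 beside -0.02 and -0.06 for coding lead peaks. Between the knockouts they ran from -0.14 at Ccnt2 to 0.22 at Ccnt1.
At Supt5 the CTCF values were 117 and 115 (WT), 117 and 112 (Trdn-as KO) and 124 and 124 (Mettl3 KO). Supt5 was the only lead peak at which both Mettl3 KO libraries exceeded both WT libraries, as 13.7% of coding lead peaks did, and Nelfa and Hexim1 were the ones at which both fell below, as 29.7% did. In Trdn-as KO the values of Nelfa, Nelfb and Ccnt2 lay below both WT libraries, beside 18.9% of coding lead peaks, and Ccnt1 lay above, beside 14.3%. None of these differences was called, and the sign at Hexim1 in Mettl3 KO turned with size factors computed within the CTCF libraries (0.029).
The Nelfa upstream region had the largest CTCF change of the members against WT. Its values were 18 and 26 (WT), 16 and 11 (Trdn-as KO) and 14 and 20 (Mettl3 KO), with a log2 fold change of -0.67 (interval -1.18 to -0.15, unadjusted p = 0.0136, adjusted p = 0.364 in limma) in Trdn-as KO. Its IgG values were 20, 13 and 23 (8, 2 and 5 reads), and per mapped read its CTCF was at least 1.48 times IgG.

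The members act with other complexes, for which a list of 37 partner genes was used, and 32 of these had a lead peak that was tested. In Mettl3 KO against WT their Pol II change was positive at 30 of 32, with a median of 0.24, beside 0.26 for the 9 members and 0.27 for coding lead peaks. In Trdn-as KO against WT the partner median was -0.05, with 10 of 32 positive, and without Trdn-as KO replicate 2 it was 0.067, with 28 of 32 positive. Between the knockouts it was -0.31, beside -0.30 for coding lead peaks, with 30 of 32 negative, and without that library -0.136. With all libraries, 92.0% of the coding lead peaks of mean 100 or more were positive in Mettl3 KO against WT. That share was 41.5% in Trdn-as KO against WT and 6.35% between the knockouts. At an unadjusted p under 0.05 there were 0, 6 and 14 of the 32 for Pol II in Trdn-as KO against WT, Mettl3 KO against WT and between the knockouts, beside 7.7%, 15.5% and 17.9% of all tested regions. The 4 tested regulators of P-TEFb and the 7SK particle had a median of 0.20 in Mettl3 KO and the 6 genes of the super elongation complex, which contains P-TEFb, a median of 0.24, and none of them was called. Supt4a, the partner of Spt5 in DSIF, had a change of 0.13 that did not pass, and the 3 genes of FACT and the Spt6 partner Iws1 had a median of 0.20. The 7 other elongation and backtracking factors had a median of 0.17 and the 5 other kinase genes of the Pol II tail 0.26, again with no call.

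Leo1, a subunit of the PAF1 complex that binds elongating Pol II, was the one partner called of the 32 tested. Of the coding lead peaks, 1.73% were called in Mettl3 KO against WT and 2.02% between the knockouts. Its Pol II values at chr9:75348234-75349470, which covers its start, were 50 and 72 (WT), 92 and 71 (Trdn-as KO) and 224 and 205 (Mettl3 KO). Both Mettl3 KO libraries were above all 4 others. The change against WT was 3.53-fold (log2 fold change 1.82, SE 0.25, adjusted p = 3.59e-06 in limma), and Trdn-as KO against Mettl3 KO gave -1.40 (SE 0.25, adjusted p = 0.000532). IgG was 41, 53 and 64 in WT, Trdn-as KO and Mettl3 KO, so that the WT Pol II value was 1.49 times IgG in the deposited values and 5.52 times per mapped read, and CTCF at the same region was 48 and 36 (WT) and 49 and 48 (Mettl3 KO).
The fold held in size but the call did not hold in every fit. With no filter and all libraries kept, no Pol II region was called in Mettl3 KO against WT, so the Leo1 call was lost there. Without WT replicate 1 the change against WT was 1.56 (adjusted p = 0.156), without Mettl3 KO replicate 1 it was 1.76 (0.142) and without Mettl3 KO replicate 2 it was 1.88 (0.308). The call against Trdn-as KO was lost without either Mettl3 KO library (adjusted p = 0.263 and 0.399) or without Trdn-as KO replicate 2 (0.0857). The other 5 genes of the PAF1 complex were not called. For CTCF none of the 32 partners was called in the 3 comparisons (limma), with 3, 5 and 1 at an unadjusted p under 0.05 in Trdn-as KO against WT, Mettl3 KO against WT and between the knockouts, beside 10.2%, 15.7% and 18.8% of all regions tested for CTCF.

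**Figure D5:**
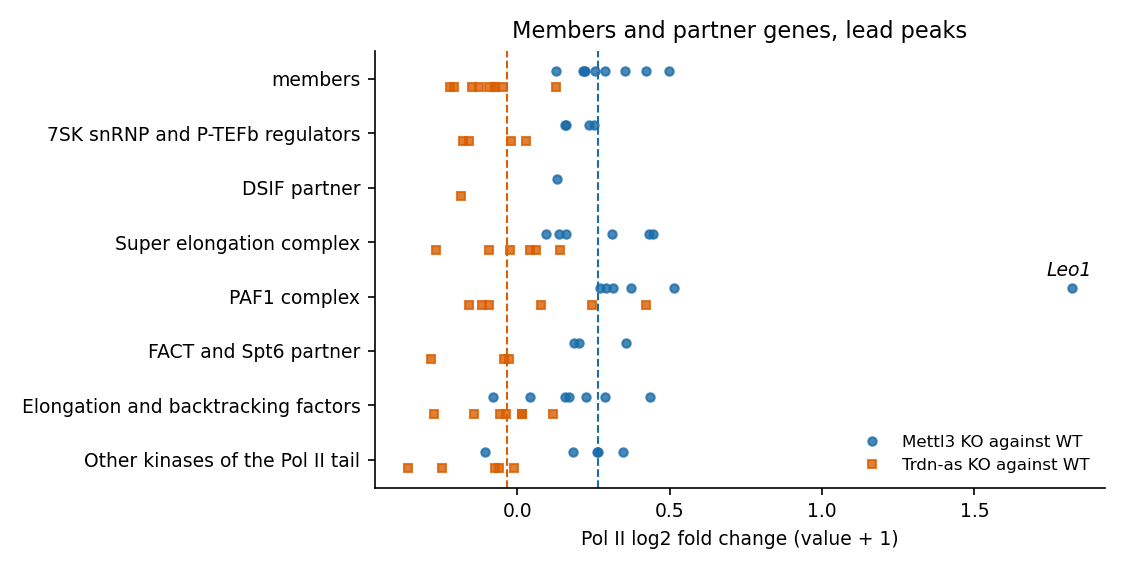
Points are Pol II log2 fold changes (value + 1) of lead peaks against WT for the 9 members and the 32 partner genes by group, circles for Mettl3 KO and squares for Trdn-as KO, and the dashed lines are the medians of coding lead peaks, 0.27 and -0.03. Members and partners lie around those medians, apart from Leo1 at 1.82.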

How the data were processed

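The 18 samples are ChIP-seq libraries, of which 15 are in the deposited table and the 3 inputs were not used here. The authors trimmed reads (Trimmomatic 0.39), aligned them to GRCm39 (STAR 2.7.11b), removed duplicates (Picard 3.1.1), called peaks per library against input, merged these into 101256 regions, counted reads with featureCounts and scaled the counts with DESeq2 1.36.0. The deposited values are thus a normalised score that the authors rounded, so a count model was not used. Regions carry the nearest gene with a start within 5000 nt. The value of 1 read was estimated from the steps in low Pol II and IgG values. For CTCF it lies below 1 unit, so the CTCF reads in regions were not estimated, and only the mapped totals of the study are known.

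Values were tested with limma 3.58.1 (R 4.3.3) on log2(value + 1), with a variance trend, over the 6 libraries of a target, for regions at 10 or more in at least 2 libraries, with Benjamini-Hochberg adjustment over all of them at 0.05. Intervals are 95%. Fold changes on this scale understate changes at low values. In simulated Trdn-as KO against WT data, 53.0% of 200 changed Pol II regions were recovered at a log2 fold change of 1 and 98.0% at 2. The changed regions were drawn from those with a mean value of at least 20. The simulated spread was fixed and no library had a low share of reads in regions, so these shares may not hold for the real libraries or for weaker regions. Nothing states that replicates came from separate animals, so p-values measure the spread between these samples. The named genes are all regions of the 10 members and the partner lead peaks past the threshold, up to 10. Members and lists were chosen with earlier results of these data known. IgG was not tested. The 11 alternatives changed scaling, filter, pseudocount, libraries, block, trend, region sums and threshold.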

Additional observations from a re-analysis of the deposited data

How the results depend on the processing

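In the order Trdn-as KO against WT, Mettl3 KO against WT and Trdn-as KO against Mettl3 KO, the limma fit as reported called 160, 629 and 790 of 52655 Pol II regions and 356, 112 and 828 of 60649 CTCF regions. The Pol II and then the CTCF counts were 323, 2375 and 1451 and 471, 665 and 1192 with size factors within the target, 2, 0 and 1 and 58, 0 and 73 with no filter, 206, 1130 and 1532 and 306, 463 and 1166 with a mean value of at least 20. They were 232, 1027 and 1294 and 379, 157 and 935 with a pseudocount of 8, 47, 4861 and 128 and 37, 0 and 26 with only the compared genotypes, 201, 756 and 950 and 236, 2 and 376 with the replicate block, and 4, 2 and 12 and 156, 0 and 244 with no variance trend, 76, 195 and 196 and 189, 7 and 305 with an adjusted p of 0.01. With mapped reads as library size, which was run for Pol II alone because the value of 1 CTCF read was not estimated, the counts were 127, 33 and 221. Where 0 were called, the regions at an unadjusted p under 0.05 numbered 9815 for Pol II and 12240 for CTCF with no filter, and for CTCF 9779 with only the compared genotypes and 9093 with no variance trend. Of the Pol II calls, 42, 375 and 187 were higher as reported, 123, 1271 and 682 with size factors within the target and 11, 10 and 17 with mapped reads, and of the CTCF calls 211, 60 and 575 and, with size factors within the target, 251, 460 and 498. Leaving out 1 library at a time gave 19 to 1908, 0 to 4655 and 12 to 9539 Pol II regions and 1 to 38, 0 to 0 and 1 to 26 CTCF regions, and 0 to 2, 0 to 3 and 0 to 7 member lead peaks for Pol II. Lead peaks of members were otherwise called only for Pol II, with 3 in Mettl3 KO against WT with only the compared genotypes and 1 between the knockouts with a mean value of at least 20. The median log2 fold change of the 9 lead peaks moved by more than the spread between replicates to -0.69 (Trdn-as KO against WT) and -0.80 (between the knockouts) with mapped reads for Pol II, and with size factors within the target to -0.17 for Pol II and -0.088 for CTCF between the knockouts. Leaving out libraries gave -0.26 to 0.074 for Pol II in Trdn-as KO against WT and -0.080 to 0.025 for CTCF in Mettl3 KO against WT. With size factors within the target, log2 fold changes turned sign for CTCF in Mettl3 KO against WT to 0.048 at Ccnt2 and 0.029 at Hexim1, for CTCF in Trdn-as KO against Mettl3 KO to -0.088 at Cdk9, -0.088 at Hexim1, -0.060 at Nelfa and -0.018 at Nelfe gene-end region, for CTCF in Trdn-as KO against WT to -0.0001 at Cdk9, for Pol II in Trdn-as KO against WT to 0.0005 at Ccnt2 and 0.027 at Hexim1. With promoter regions summed per gene, log2 fold changes turned sign for CTCF in Trdn-as KO against WT to 0.041 at Hexim1 and 0.042 at Nelfe, for CTCF in Trdn-as KO against Mettl3 KO to -0.024 at Nelfa. With mapped reads as library size, log2 fold changes turned sign for Pol II in Mettl3 KO against WT to -0.011 at Cdk9, for Pol II in Trdn-as KO against WT to -0.47 at Nelfa, -0.44 at Hexim1 small downstream region and -0.17 at Leo1. Without 1 library, signs turned for CTCF in Mettl3 KO against WT, with ranges of -0.20 to 0.045 at Ccnt1, -0.12 to 0.095 at Ccnt2, -0.066 to 0.12 at Cdk9 and -0.26 to 0.064 at Nelfcd. Without 1 library, signs turned for Pol II in Trdn-as KO against WT, with ranges of -0.45 to 0.038 at Ccnt1, -0.26 to 0.074 at Cdk9, -0.24 to 0.15 at Hexim1, -0.30 to 0.53 at Hexim1 small downstream region, -0.052 to 0.31 at Nelfa, -0.45 to 0.15 at Nelfe and -0.30 to 0.16 at Supt5. Without 1 library, signs turned for CTCF in Trdn-as KO against Mettl3 KO, with ranges of -0.070 to 0.31 at Cdk9 intragenic region, -0.051 to 0.070 at Cdk9, -0.065 to 0.084 at Hexim1, -0.0001 to 0.074 at Nelfa, -0.20 to 0.072 at Nelfb, -0.17 to 0.11 at Nelfcd and -0.0022 to 0.23 at Nelfe. Without 1 library, signs turned for CTCF in Trdn-as KO against WT, with ranges of -0.056 to 0.13 at Cdk9, -0.096 to 0.053 at Hexim1, -0.29 to 0.032 at Nelfcd, -0.11 to 0.080 at Nelfe and -0.050 to 0.012 at Supt5. The cause of these shifts was not tested, and no lead peak passed the threshold in any fit in which its sign turned. Same-numbered samples share only a number, since their deviations correlated at -0.0096 to -0.0002 for Pol II and -0.24 to 0.0059 for CTCF, and the replicate block called no lead peak. With the WT numbers crossed, chosen after seeing the data, 473 CTCF regions were called in Trdn-as KO against WT. With 2 libraries a genotype, and 1 for IgG, small changes at single promoters lie within the intervals given, and values of a few reads, as at the small Hexim1 region, are limited by depth.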
